A study of Homo sapiens with 6 samples.

Results

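Interleukin-18, the related interleukin-1 cytokines and the inflammasome components that process them were followed in HepG2 cells, a human liver tumour line, after a day in boric acid. The set comprised 7 genes, each represented by 1 transcript probe set: IL18, IL1A, IL1B, IL1RN, CASP1, CASP4 and PYCARD. Other transcripts of these genes, if on the array, were not examined, so each gene's values are those of 1 transcript probe set. All 7 transcript IDs were found among the 65527 probe sets of the deposited table. They were chosen with the result of the boric acid comparison known, and IL18 was selected on its log2 difference between the groups, the largest increase of the table. Their differences between the groups are therefore a description, and no p is given for them. Intervals and SEs come from limma's fit, which draws each gene's variance toward that of all probe sets. They are thus not the spread of a gene's own arrays alone, and they are not evidence of a change. Whether a gene passed the threshold is stated to place it beside all probe sets, not as evidence. The gene symbols were assigned to the transcript IDs when the set was chosen. The reference table of genes holds no such ID (0 of the 65527 matched), so the assignment was not checked here.

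The treated group comprised 3 arrays from cells kept for 24 hours in 24 mM of the boron compound, a weak acid, which the labels give as its half-maximal inhibitory concentration. The control group comprised 3 arrays titled as control HepG2 cells, called untreated below. No dose or time was recorded for them here. The labels name no separate cultures, so the spread between arrays of a group may be partly technical, and they name no vehicle, culture batch or further time point. The treated arrays were not equally alike: the median absolute log2 difference was 0.173 between boric acid arrays 1 and 2, 0.175 between 1 and 3 and 0.115 between 2 and 3, so array 1 lay apart. The difference of each gene without it is given below. The array medians on the log2 scale ran from 6.84 to 6.88 in boric acid and from 6.89 to 6.92 in the controls. Every boric acid median thus lay slightly below every control median. The lower quartiles ran from 4.65 to 4.69. Hepatocyte and blood cell markers, and the 44 further genes of 6 lists around this pathway (sensors, pore proteins, receptors, receptor signalling), were not analysed here because no table used here ties their symbols to transcript IDs.

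The interleukin-1 family consists of cytokines that start and amplify inflammation, and of natural antagonists that restrain them. IL-1β and IL-18 are made as inactive precursors. They are cut to their active form by caspase-1, which is itself activated on inflammasomes, complexes in which a sensor recruits the protease through the adaptor ASC. In the liver these components are best known from macrophages, while hepatocytes secrete the IL-1 receptor antagonist as part of the acute phase response.

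IL18 (ENST00000280357.11), which encodes the interleukin-18 precursor, differed from the other 6 in the size of its change. Its log2 signal was 4.26, 4.39 and 3.58 on control arrays 1 to 3 and 8.53, 7.42 and 8.21 on boric acid arrays 1 to 3. The groups lay far apart, with a gap of 3.03 between the highest control array and the lowest boric acid array. The means were 4.08 ± 0.43 (SD, n = 3) for untreated cells and 8.05 ± 0.57 (SD, n = 3) for treated cells. The difference of 3.97 on the log2 scale (SE 0.32, 95% interval 3.22 to 4.72) corresponds to 15.7-fold (3.73 on the log2 scale without boric acid array 1), and ranked 1 among the increases of all 65527 probe sets. In RNA of whole cultures, a change in the number of cells that express a gene and a change in RNA per cell cannot be told apart.

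The 3 control arrays gave a dim IL18 signal. It stood at the 19.4th, 21.2nd and 4.84th percentile of the signals on control arrays 1, 2 and 3, against the 57.4th and 69.7th percentile on boric acid arrays 2 and 3 and a higher one on boric acid array 1. The signal thus lay under the lower quartile in the controls and above the median in the treated cells. Background was not measured, so whether the control value exceeds background, and with it the true fold, was not tested.

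IL18 also varied more between arrays of a group than most probe sets did. Its SD stood at the 97.8th percentile of all probe sets among the boric acid arrays and at the 97.3rd percentile among the control arrays. Boric acid array 2 was the lowest of the treated arrays and control array 3 the lowest of the controls. Taken within arrays of the same replicate number, the differences were 4.27, 3.03 and 4.62 for numbers 1, 2 and 3. Each of them exceeded the range within either group, which was 1.11 for boric acid and 0.81 for control. Since IL18 was selected on its difference between groups, nothing is read from this excess. The labels state no pairing by replicate number.

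**Figure D1:**
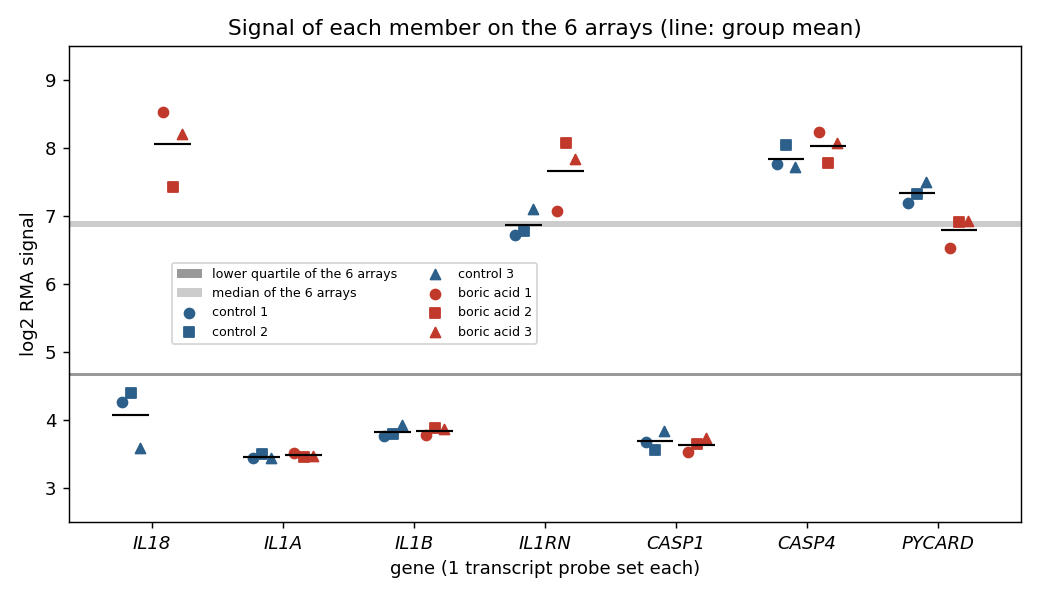
Log2 RMA signal (vertical axis) of the 7 genes (horizontal axis) on the 3 control and 3 boric acid arrays; marker shape gives the replicate number, black lines the group means, and grey bands the range of the arrays' medians and lower quartiles. IL18 lies below the lower quartile on the control arrays and above the medians on the boric acid arrays, while IL1A, IL1B and CASP1 lie below the lower quartile on all 6.

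The precursors of interleukin-1 itself gave no comparable change. IL1A (ENST00000263339.3), which encodes interleukin-1α, an alarm cytokine active as its precursor, had signals of 3.44, 3.50 and 3.45 on control arrays 1 to 3 and 3.51, 3.46 and 3.48 on boric acid arrays 1 to 3. IL1B (ENST00000263341.6), which encodes the interleukin-1β precursor, had signals of 3.77, 3.80 and 3.93 on the control arrays and 3.78, 3.88 and 3.87 on the boric acid arrays. In both genes the groups overlapped. The difference between groups was 0.02 for IL1A (95% interval -0.16 to 0.20) and 0.01 for IL1B (95% interval -0.19 to 0.22). Without boric acid array 1 the differences were 0.004 for IL1A and 0.044 for IL1B. In folds of boric acid over control, the intervals ran from 0.895 to 1.15 for IL1A and from 0.876 to 1.16 for IL1B.

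These bounds hold for the signal and not necessarily for the RNA. IL1A stood between the 2.09th and 3.82nd percentile of the 6 arrays and IL1B between the 9.91st and 13.2nd. Few probe sets of such signal passed the threshold: 0.508% of the 5509 within 0.25 of the mean signal of IL1A and 1.53% of the 7438 within 0.25 of that of IL1B. A change in transcripts at or below background could not be seen at this level.

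IL1RN (ENST00000409930.3) encodes the IL-1 receptor antagonist, which occupies the interleukin-1 receptor without activating it. Its signal was 6.73, 6.78 and 7.10 on control arrays 1 to 3 and 7.07, 8.08 and 7.84 on boric acid arrays 1 to 3. Boric acid arrays 2 and 3 exceeded every control array, whereas boric acid array 1 lay just below control array 3, so the groups overlapped. The means were 6.87 ± 0.20 (SD, n = 3) for untreated cells and 7.66 ± 0.52 (SD, n = 3) for treated cells, a log2 difference of 0.79 (SE 0.25, 95% interval 0.19 to 1.39) or 1.73-fold. By limma's adjusted p over all probe sets, IL1RN did not pass the threshold of 0.05 in the comparison without pairing. With the replicate number as a block the log2 difference was the same 0.79 with an SE of 0.19, and it passed. The labels state no such pairing, and boric acid arrays 2 and 3 each correlated best with a control array of another number.

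Whether IL1RN passed depended on single arrays. Without boric acid array 1 the log2 difference of IL1RN was 1.08 and passed the threshold, and without boric acid array 2 it was 0.58 and did not. Within replicate numbers 1, 2 and 3 the differences were 0.35, 1.29 and 0.73, so all 3 had the same sign and differed widely in size. The SD among the boric acid arrays stood at the 97.2nd percentile of all probe sets, against the 77.5th percentile among the controls. Of the 4778 probe sets within 0.25 of the mean signal of IL1RN, 35.3% passed the threshold and 13.3% had a larger absolute difference.

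Among the parts of the inflammasome, the adaptor passed the threshold and the proteases did not. These calls do not compare the parts, since CASP1 was dim and 0.884% of probe sets near its signal passed. PYCARD (ENST00000247470.9) encodes ASC, which bridges sensors to caspase-1 and polymerises into specks. Its signal was 7.20, 7.33 and 7.50 on control arrays 1 to 3 and 6.53, 6.92 and 6.93 on boric acid arrays 1 to 3. Every boric acid array lay below every control array, with a gap of 0.27. The means were 7.34 ± 0.15 (SD, n = 3) for untreated cells and 6.79 ± 0.23 (SD, n = 3) for treated cells. PYCARD fell by 0.55 on the log2 scale (SE 0.14, 95% interval of the signed difference -0.88 to -0.22), so that it was 1.47-fold lower in boric acid. The differences within replicate numbers 1, 2 and 3 were -0.67, -0.41 and -0.58. PYCARD also passed without any one boric acid array (the difference was -0.42 without boric acid array 1) and without control array 1. Without control array 2 the difference was -0.56 and without control array 3 it was -0.47, and neither passed. Of the 4595 probe sets within 0.25 of the mean signal of PYCARD, 32.1% passed the threshold and 26.3% had a larger absolute difference.

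CASP1 (ENST00000436863.7) encodes caspase-1, a protease that matures IL-1β and IL-18. Its signal was 3.67, 3.57 and 3.85 on control arrays 1 to 3 and 3.53, 3.65 and 3.74 on boric acid arrays 1 to 3, in overlapping ranges. The difference was -0.06 (SE 0.11, 95% interval -0.30 to 0.19), and -0.0019 without boric acid array 1. Like IL1A and IL1B it was dim, between the 3.97th and 11.3rd percentile of the arrays, and 0.884% of the 7579 probe sets within 0.25 of its mean signal passed the threshold.

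CASP4 (ENST00000444739.6) encodes caspase-4, which senses bacterial lipopolysaccharide in the cytosol and cuts the pore protein gasdermin D. Its signal was 7.76, 8.04 and 7.71 on control arrays 1 to 3 and 8.24, 7.79 and 8.08 on boric acid arrays 1 to 3. The groups overlapped, since control array 2 exceeded boric acid array 2. The difference was 0.20 (SE 0.15, 95% interval -0.15 to 0.54), which as a fold of boric acid over control spans 0.904 to 1.45. Without boric acid array 1 it was 0.09 on the log2 scale. CASP4 was not dim, and 36.4% of the 5261 probe sets within 0.25 of its mean signal passed the threshold.

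In all, 2 of the 7 genes passed limma's adjusted p of 0.05, 1 upward (IL18) and 1 downward (PYCARD). Of all 65527 probe sets 24.1% passed, 12.4% upward and 11.7% downward. The same 2 genes were those whose groups did not overlap, as did 40.4% of all probe sets, 20.8% upward and 19.6% downward. The median log2 difference was 0.02 over the 7 genes and 0.003 over all probe sets. Since the set was chosen with this comparison known, nothing is read from these counts. With a signal filter (above the table median of 6.89 on at least 3 arrays) 4 of the 7 remained, IL18 through its boric acid arrays alone. IL1RN was kept through its 3 boric acid arrays, since of its control arrays only array 3 exceeded that median.

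**Figure D2:**
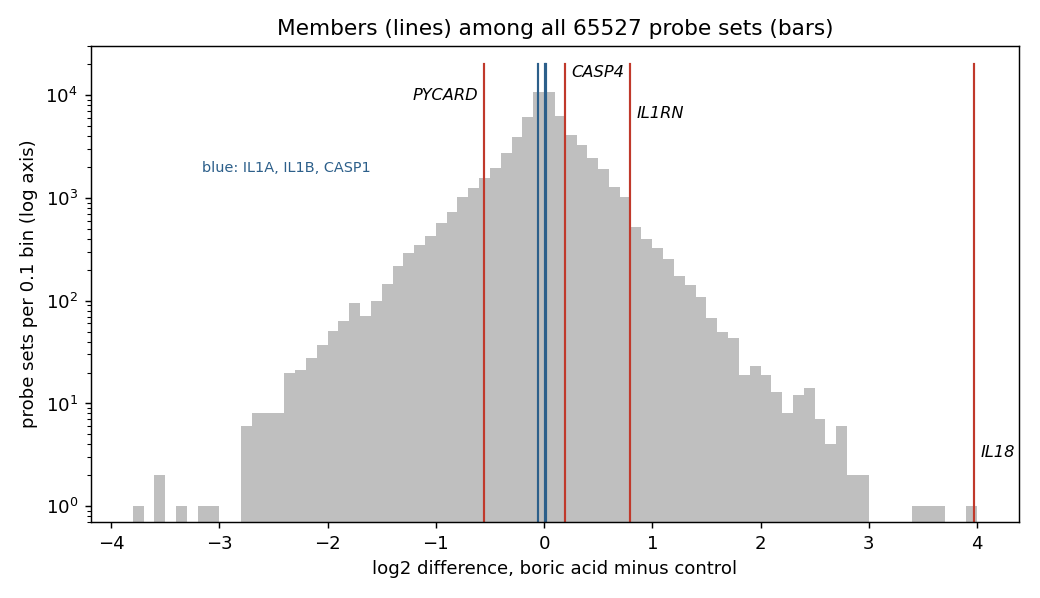
Log2 difference, boric acid minus control (horizontal axis), of all 65527 probe sets in bins of 0.1 (grey bars, counts on a log axis), with the 7 genes as vertical lines. IL18 at 3.97 lies at the far right of the distribution, IL1RN at 0.79 and PYCARD at -0.55 within its flanks, and IL1A, IL1B and CASP1 near 0.

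Among the 4 genes that were not dim on every array, IL18 and CASP4 had the same order of arrays in both groups: boric acid array 1 was the highest and array 2 the lowest, and control array 2 was the highest and array 3 the lowest. IL1RN ran against them, with boric acid array 2 the highest and array 1 the lowest. On boric acid array 1 the deviation from the group mean was -0.59 for IL1RN and 0.48 for IL18. IL1RN and PYCARD shared the order of the control arrays, 3 the highest and 1 the lowest, and both were lowest on array 1 in boric acid too. On control array 1 the deviation was -0.15 for each of them, and on boric acid array 1 it was -0.26 for PYCARD. With 3 arrays per group an order carries little weight, and it was not tested.

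**Figure D3:**
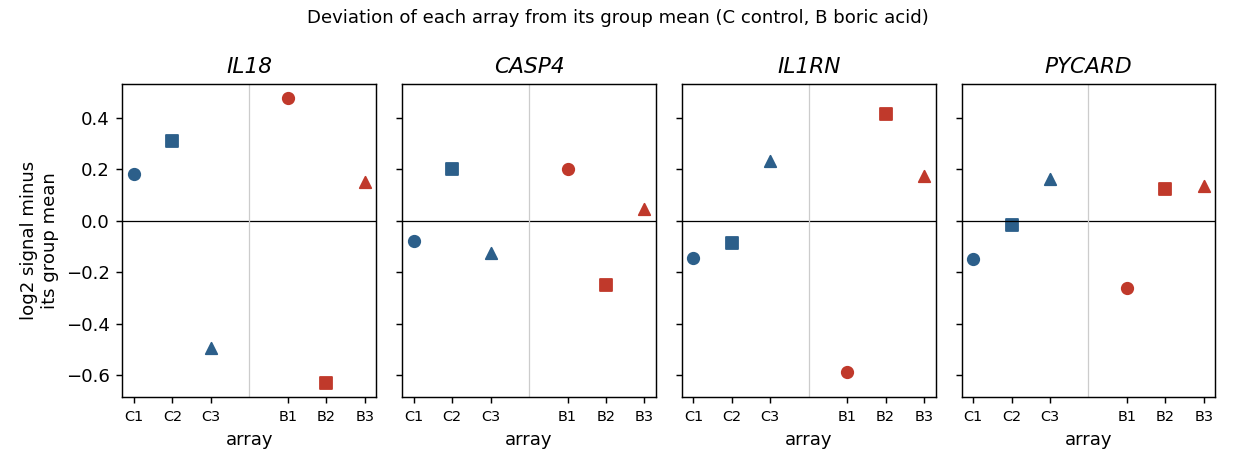
Log2 signal minus the mean of its group (vertical axis) for IL18, CASP4, IL1RN and PYCARD on control arrays C1 to C3 and boric acid arrays B1 to B3 (horizontal axis). On B1, IL18 and CASP4 lie above 0 and IL1RN and PYCARD below 0.

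The probe sets whose profile was most like that of IL18 were sought by the Euclidean distance between values centred on each probe set's mean over the 6 arrays. This distance includes the difference between groups on which IL18 was selected. A large increase in the probe sets found was therefore set by the search and is not a result. The nearest, ENST00000297991.4 at a distance of 0.84, averaged 6.10 ± 0.25 (SD, n = 3) on the control arrays and 9.62 ± 0.71 (SD, n = 3) on the treated ones. The next, ENST00000473153.1 at 0.90, averaged 7.13 ± 0.75 (SD, n = 3) on the control arrays and 10.74 ± 0.71 (SD, n = 3) on the treated ones. No gene name is given for either. No probe set repeated the 6 values of any of the 7 genes.

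The 7 genes lie in a few places of the genome. In the RefSeq annotation of GRCh38.p14, IL1A and IL1B are neighbouring protein-coding genes on chromosome 2, and 6 others, all of the interleukin-1 family (IL37, IL36G, IL36A, IL36B, IL36RN and IL1F10), separate IL1B from IL1RN. CASP1 and CASP4 lie on chromosome 11 with CASP5 as the only protein-coding gene between them. IL18 lies on the same chromosome, with 46 protein-coding genes between it and CASP1, and PYCARD on chromosome 16.

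RefSeq promoter windows, from 250 bases before a start site to 50 bases from it on, were held for 5 of the 7 genes (IL1A, IL1B, IL1RN, CASP4 and PYCARD). Those of PYCARD, CASP4 and IL1B are shown with CpG dinucleotides in capitals, of which PYCARD has many more than CASP4 or IL1B. Each runs 5′ to 3′ on the minus strand of GRCh38.p14, at chr16:31202711-31203010, chr11:104968525-104968824 and chr2:112836730-112837029 respectively.
PYCARD: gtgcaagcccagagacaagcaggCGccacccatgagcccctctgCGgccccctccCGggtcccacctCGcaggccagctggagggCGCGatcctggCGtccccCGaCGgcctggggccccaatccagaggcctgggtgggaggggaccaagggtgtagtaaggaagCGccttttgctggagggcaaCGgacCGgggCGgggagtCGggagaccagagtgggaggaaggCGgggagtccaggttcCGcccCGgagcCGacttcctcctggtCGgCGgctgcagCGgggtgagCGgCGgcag
CASP4: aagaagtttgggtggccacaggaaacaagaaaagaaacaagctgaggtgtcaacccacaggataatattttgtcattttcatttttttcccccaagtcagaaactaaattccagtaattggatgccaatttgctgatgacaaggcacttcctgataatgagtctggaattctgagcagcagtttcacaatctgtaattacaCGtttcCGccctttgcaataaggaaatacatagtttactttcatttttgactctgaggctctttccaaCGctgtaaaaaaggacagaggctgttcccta
IL1B: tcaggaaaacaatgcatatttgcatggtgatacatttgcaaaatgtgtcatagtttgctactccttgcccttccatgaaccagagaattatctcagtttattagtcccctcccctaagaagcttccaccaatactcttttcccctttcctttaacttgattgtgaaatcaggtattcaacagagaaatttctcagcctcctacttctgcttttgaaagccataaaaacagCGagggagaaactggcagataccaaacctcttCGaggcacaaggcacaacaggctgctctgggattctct
The PYCARD window has 23 CpG dinucleotides and 72.0% G and C, the CASP4 window 3 and 39.7%, and the IL1B window 2 and 42.3%. The median of all 35116 RefSeq windows is 14 CpG, and 64.2% of them have fewer than the PYCARD window. The windows of IL1A, which was dim, have 8 CpG each, and those of IL1RN, which was not dim, have 2, 5 and 7. A link between CpG content and signal was not tested. Methylation of these windows was not measured.

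IL1RN, whose difference was the largest of the 7 after that of IL18, has 3 RefSeq start sites, and its transcript ID was not tied to one of them here. The first (chr2:113117721-113118020) and the last (chr2:113127348-113127647), both on the plus strand of GRCh38.p14, are shown with motif matches in capitals; the one between overlaps the last.
IL1RN first start: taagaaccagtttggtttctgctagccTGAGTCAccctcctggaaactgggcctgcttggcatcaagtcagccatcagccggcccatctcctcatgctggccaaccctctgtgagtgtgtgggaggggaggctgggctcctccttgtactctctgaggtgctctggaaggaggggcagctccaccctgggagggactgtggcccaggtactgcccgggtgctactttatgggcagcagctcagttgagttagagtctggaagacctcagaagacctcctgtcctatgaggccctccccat
IL1RN last start: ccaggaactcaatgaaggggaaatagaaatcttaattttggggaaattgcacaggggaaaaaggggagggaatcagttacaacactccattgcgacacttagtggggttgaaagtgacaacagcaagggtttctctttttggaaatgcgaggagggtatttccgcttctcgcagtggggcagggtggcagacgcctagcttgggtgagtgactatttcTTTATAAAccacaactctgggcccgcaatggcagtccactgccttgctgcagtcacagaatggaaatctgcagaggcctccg
Both strands were searched for the TATA box TATAAA, the AP-1 motif TGANTCA, the C/EBP-ATF response element TGATGNAA and the NF-kappaB motif. The first window holds 1 AP-1 match, 223 to 217 bases before the start site. The last holds 2 overlapping TATA box matches, at 30 to 25 bases before the start site on the plus strand and at 32 to 27 bases on the minus strand. Of all windows of this length, 7.71% hold an AP-1 match and 11.5% a TATA box match. The PYCARD, CASP4 and IL1B windows hold none of the 4 motifs as spelled, and the 2 overlapping IL1A windows hold the same 2 AP-1 matches, with a TATA box match in 1 of these windows. The C/EBP-ATF element (3.62% of all windows) and the NF-kappaB motif (11.3%) were in none of the 8 windows of these genes.

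Leaving out each array in turn, the log2 difference of IL18 ran from 3.73, with control array 3 left out, to 4.29, with boric acid array 2 left out, which bears on its size only, since IL18 was selected on this difference. That of IL1RN ran from 0.58 to 1.08, that of CASP4 from 0.09 to 0.32 and that of PYCARD from -0.63 to -0.42.

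**Figure D4:**
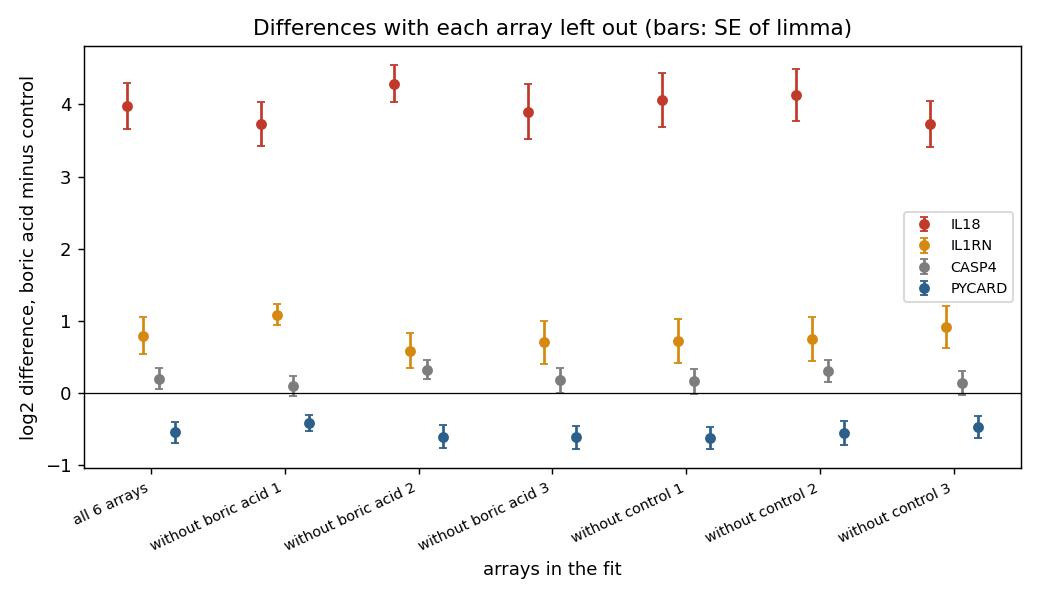
Log2 difference, boric acid minus control (vertical axis), of IL18, IL1RN, CASP4 and PYCARD with all 6 arrays and without each array in turn (horizontal axis); bars are the SE of limma's fit. IL18 stays between 3.73 and 4.29, IL1RN is highest at 1.08 without boric acid array 1, and PYCARD stays below 0.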

How the data were processed

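Each of 6 HepG2 samples, 2 groups of 3, was read on its own Affymetrix whole-transcript array. The deposited values are log2 signals to which the authors applied RMA, per the submitters' processing notes (a background correction with quantile normalization and a summary over probes); the log2 scale was read from the values. The sources used here name no probe set definition, annotation release or build. Quantile normalization removes a shift of the whole distribution, so differences are relative to the array. Scanner files were not used here.

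Groups were compared with limma 3.58.1 (lmFit, eBayes; R 4.3.3) over all 65527 probe sets without a signal filter, two-sided, with Benjamini-Hochberg adjustment at 0.05 (4 residual and 3.11 prior degrees of freedom). The fit was checked on simulated data. The number of arrays limits the precision (median SE 0.11). The 7 genes and the lists were chosen with earlier results of these data known. Named were all 7 genes and the 2 probe sets nearest to IL18. Deviations from group means correlated between arrays of equal number by 0.38, 0.11 and 0.13; all exceeded 0.1, so numbers 1 to 3 were treated as pairs in the blocked alternative. The labels state no pairing, and 2 of the 3 boric acid arrays correlated best with another number, array 2 with control array 3 (0.26) and array 3 with control array 2 (0.14). Other alternatives were 2 signal filters, 3 scalings, a trended robust variance, array weights, leaving out each array and counting identical rows once.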

Additional observations from a re-analysis of the deposited data

How the results depend on the processing

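IL18, which was selected on this difference so that its calls bear on nothing, had log2 differences from 3.73 to 4.29 with 1 array left out and from 3.80 (array weights) to 4.01 (centred arrays) otherwise. IL1RN passed with the median signal filter (0.79), centred arrays (0.83), array weights (0.97) and the replicate block (0.79). It also passed without boric acid array 1 (1.08), and not in the others. The median filter kept IL1RN through its boric acid arrays, where it was higher, so nothing is read from its call there. Of the 33710 probe sets that this filter kept, 14239 passed. The values of IL1RN with 1 array left out ran from 0.58 to 1.08. PYCARD ran from -0.63 to -0.42 with 1 array left out and lost its call without control array 2 (-0.56) or 3 (-0.47). The replicate block changed no other call among the 7 genes. The genes past the threshold numbered 1 to 3 with 1 array left out. Over all probe sets 15794 passed, 8194 of the 17458 above the 75th percentile, and 10366 to 15040 with 1 array left out, fewest when that was control array 2 (control array 3 gave 10479). The filter at the 75th percentile left none of the 7 genes. Signs near 0 turned for IL1B without boric acid array 2 (-0.0057) or 3 (-0.00029) and without control array 1 (-0.020) or 2 (-0.0055), and for CASP1 without control array 3 (0.019); over single arrays left out, IL1B ran from -0.020 to 0.064 and CASP1 from -0.12 to 0.019. The causes were not tested. Upward calls were 51.3% of all calls as deposited, 57.1% with centred arrays and 48.3% with cyclic loess. Dim signal limits IL1A, IL1B, CASP1 and the controls of IL18.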
